A study of Mus musculus with 24 samples.

Results

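The 39 Hox genes of the mouse were followed through 24 RNA-seq libraries from 6 cell lines of small cell lung cancer, 3 called Type D and 3 called Type V. The genes were taken by symbol, as every entry named Hoxa, Hoxb, Hoxc or Hoxd with a number, and they were 39 of the 25239 genes in the expression table. By cluster they were 11 HoxA, 10 HoxB, 9 HoxC and 9 HoxD genes. Values are TPM, a transcript level corrected for transcript length and scaled to the same total in every library, so levels of different genes can be set side by side. A gene was called on in a library at a TPM of at least 1.

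The lines were derived from single lung tumors of mice that carried floxed Rb1 and Rbl2 alleles, the Trp53 XTR allele and Rosa26 FlpO-ER, and whose tumors were started with Cre driven by a CMV promoter from an adenovirus. All 24 libraries therefore shared the loss of Rb1 and Rbl2. In Control cells Trp53 was held off by its gene trap and the cells received the ethanol vehicle. In Restored cells 4-hydroxytamoxifen activated FlpO-ER, which removed the trap. Both states were also made with cyclosporin A (CsA), an inhibitor of cyclophilins, as Control + CsA and Restored + CsA, and all cells were collected at 72 h. The types were told apart by the study by whether the cells die (Type D: 4711-1, 4711-18 and 4716-11) or stay viable (Type V: 4711-11, 4716-10 and 4716-14) once p53 is back. Each line is 1 tumor line and gave 1 library per treatment, so each of the 8 groups held 3 libraries and each line 4.

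Hox genes encode homeodomain transcription factors that give cells their position along the head to tail axis of the embryo. They lie in clusters, and within a cluster the genes at the 3′ end (low numbers) are used in anterior and the genes at the 5′ end (high numbers) in posterior parts of the body. Polycomb proteins keep unused clusters silent, Trithorax proteins keep used ones active, and retinoic acid can switch on their 3′ ends. In the developing lung, 3′ and middle genes of HoxA and HoxB are known above all from the mesenchyme, where Hoxa5 is needed for lung and airway formation.

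Each cluster is a compact block of genes. In the GENCODE M21 annotation of GRCm38 the HoxA genes span 105 kb of chromosome 6, the HoxB genes chr11:96194316-96368256, 174 kb, the HoxC genes chr15:102921103-103036852, 116 kb, and the HoxD genes chr2:74668310-74765142, 96.8 kb. Promoters, as the 250 bases before and the 50 bases after a RefSeq start on GRCm38.p6, were at hand for 22 of the 39 genes in 24 entries. Below, 5 are printed with CG dinucleotides in capitals, to set genes that were on beside genes that were off, in the same cluster where possible. Hoxa5 (chr6:52204538-52204837, minus strand) was on in every Type V library and Hoxa11 (chr6:52245761-52246060, minus strand), of the same cluster, in none. Hoxb4 (chr11:96318017-96318316, plus strand) was on in 2 Type V lines and Hoxb1 (chr11:96365508-96365807, plus strand) in none. Hoxd1 (chr2:74762730-74763029, plus strand) stands for HoxD, which was off throughout.
Hoxa5: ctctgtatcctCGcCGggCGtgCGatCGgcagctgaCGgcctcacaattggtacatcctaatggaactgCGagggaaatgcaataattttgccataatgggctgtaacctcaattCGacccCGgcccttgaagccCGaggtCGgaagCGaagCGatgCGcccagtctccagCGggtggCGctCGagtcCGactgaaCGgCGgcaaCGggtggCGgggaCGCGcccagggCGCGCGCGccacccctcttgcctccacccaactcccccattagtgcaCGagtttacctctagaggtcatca
Hoxa11: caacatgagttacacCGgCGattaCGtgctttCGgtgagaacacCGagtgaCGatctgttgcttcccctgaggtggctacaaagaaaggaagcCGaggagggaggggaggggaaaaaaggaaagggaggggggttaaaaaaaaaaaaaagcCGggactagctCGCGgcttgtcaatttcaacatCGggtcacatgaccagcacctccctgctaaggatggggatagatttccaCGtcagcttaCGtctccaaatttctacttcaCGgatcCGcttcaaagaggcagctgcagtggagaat
Hoxb4: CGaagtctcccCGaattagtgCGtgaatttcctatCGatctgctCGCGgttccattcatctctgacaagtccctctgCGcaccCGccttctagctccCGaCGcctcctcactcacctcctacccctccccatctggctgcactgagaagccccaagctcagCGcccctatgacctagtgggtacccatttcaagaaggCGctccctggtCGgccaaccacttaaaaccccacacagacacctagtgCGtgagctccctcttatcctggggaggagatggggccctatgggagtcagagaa
Hoxb1: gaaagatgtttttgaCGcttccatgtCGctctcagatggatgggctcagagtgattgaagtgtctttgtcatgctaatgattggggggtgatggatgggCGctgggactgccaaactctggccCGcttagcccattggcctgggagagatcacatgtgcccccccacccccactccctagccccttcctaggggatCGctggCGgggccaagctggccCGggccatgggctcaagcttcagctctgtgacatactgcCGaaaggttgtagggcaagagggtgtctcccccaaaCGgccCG
Hoxd1: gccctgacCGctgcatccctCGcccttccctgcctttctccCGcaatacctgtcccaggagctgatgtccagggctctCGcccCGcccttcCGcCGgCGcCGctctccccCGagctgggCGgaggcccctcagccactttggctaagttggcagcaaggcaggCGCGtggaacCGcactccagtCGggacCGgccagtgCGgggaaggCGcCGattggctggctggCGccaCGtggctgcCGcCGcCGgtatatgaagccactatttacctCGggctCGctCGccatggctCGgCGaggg

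These promoters held 29 (Hoxa5), 15 (Hoxa11), 14 (Hoxb4), 10 (Hoxb1) and 29 (Hoxd1) CG dinucleotides. Over the 11 entries of Hox genes that were on in at least 1 library the median was 14 (range 9 to 45), and over the 13 entries of genes on in none it was 15 (range 4 to 37). Over all 32851 promoters the median was 7, below the medians of both groups of Hox promoters. The motif AGGTCA, a nuclear receptor motif, was found on either strand in 7 of the 24 Hox entries, among them Hoxa5, Hoxb4 and Hoxd4, and in 16.3% of all promoters. TGATNNAT, a Pbx and Hox type motif, was in 4 of 24 (Hoxa2, Hoxb1, Hoxb8 and 1 entry of Hoxd11) and in 8.85% of all. TAATTA, a homeodomain motif, was in both entries of Hoxd11 and in 5.29% of all, and TATAAA in 4 of 24 and 13.6% of all. These are letter matches in a window and were not tested for use.

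Hox expression divided the lines by type. In the 12 Type D libraries no Hox gene was on: 18 of the 39 genes were listed at 0 in every Type D library and the highest value of any Hox gene was 0.984 TPM, of Hoxc6 in Restored + CsA cells of 4716-11. In the 12 Type V libraries 21 Hox genes were on in at least 1 library, and the highest value was 95.2 TPM, of Hoxb9 in Restored cells of 4716-14. Those 21 were 9 HoxA, 7 HoxB, 5 HoxC and 0 HoxD genes. The remaining 18 genes stayed under 1 TPM in all 24 libraries, and 7 of them, Hoxb1, Hoxd1, Hoxd3, Hoxd9, Hoxd10, Hoxd11 and Hoxd12, were listed at 0 in all. Sequencing depth is unknown for these values, so a listed 0 sets no upper limit.

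**Figure D1:**
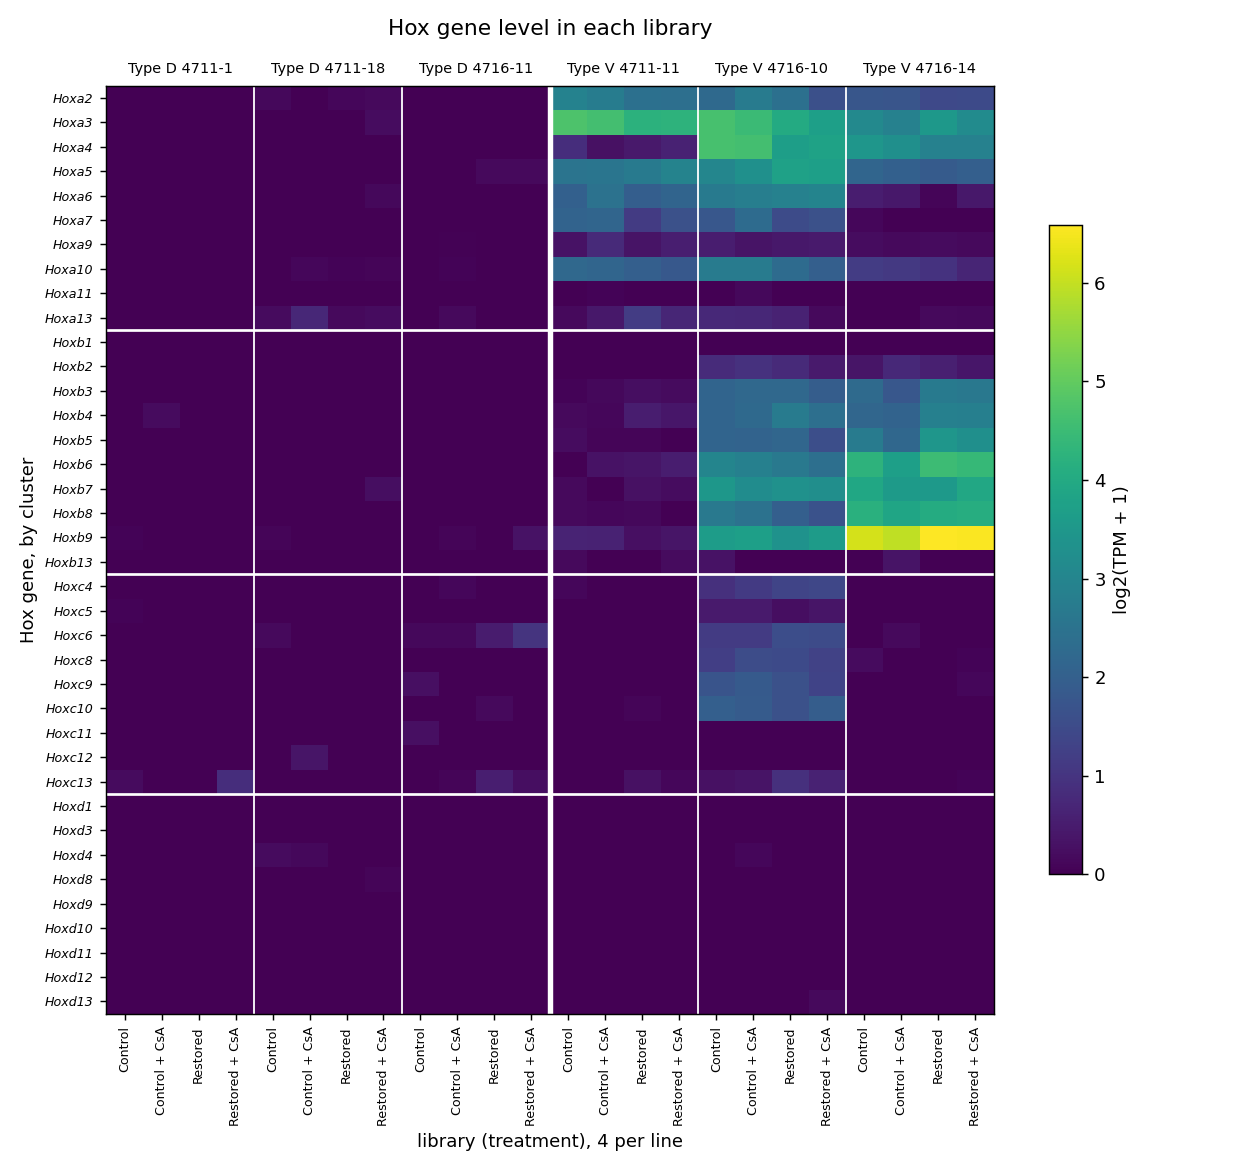
Level of 38 of the 39 Hox genes (rows, by cluster, with white lines between HoxA, HoxB, HoxC and HoxD) in the 24 libraries (columns, 4 treatments per line), as log2(TPM + 1) on the color scale. The 12 Type D libraries on the left stay under 1 TPM for every gene, HoxA genes are lit in all 3 Type V lines, HoxB genes in 4716-10 and 4716-14, HoxC genes in 4716-10 alone, and HoxD genes nowhere.

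Within Type V each line had its own set of active clusters. 4711-11 used HoxA alone, with 7 genes on in all 4 of its libraries, among them Hoxa2, Hoxa3, Hoxa5, Hoxa6, Hoxa7 and Hoxa10. 4716-14 used HoxA and HoxB, with 12 genes on, among them Hoxa2 to Hoxa5 and Hoxb3 to Hoxb9. 4716-10 used HoxA, HoxB and HoxC, with 19 genes on, among them Hoxa2 to Hoxa7, Hoxa10, Hoxb3 to Hoxb9, Hoxc6, Hoxc8, Hoxc9 and Hoxc10.

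The summed levels of HoxA and HoxB separated the 3 Type V lines without overlap, in a different order for each cluster. HoxA summed to 49.0 ± 5.05 TPM in 4711-11, 70.7 ± 12.7 in 4716-10 and 25.3 ± 1.60 in 4716-14 (mean ± SD over the 4 libraries of a line, which differ in treatment). HoxB summed to 1.36 ± 0.196, 41.0 ± 3.97 and 143 ± 27.2 TPM in the same lines, and HoxC to 0.116 ± 0.129, 10.1 ± 0.527 and 0.110 ± 0.0773. For HoxB the lines lay far apart: the lowest HoxB sum in 4716-14 was 109 TPM and the highest in 4716-10 was 45. For HoxA 2 lines lay near each other: 4716-10 spanned 57.2 to 83.0 TPM and 4711-11 reached 53.2 TPM. HoxD summed to at most 0.127 TPM in a Type V library. In Type D lines the largest mean sum of any cluster was that of HoxA in 4711-18, 1.13 ± 0.391 TPM. All 39 Hox genes together summed to at most 1.82 TPM in a Type D library and 191 TPM in a Type V library, the latter 0.0191% of its total.

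The 3′ side of HoxA was active in all Type V lines. Hoxa2, with a role in hindbrain and neural crest, ranged from 1.76 through a median of 4.05 to 6.54 TPM over the 12 Type V libraries. It was above every Type D library, where it reached 0.125 TPM.

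Hoxa3, a gene of pharyngeal organs such as the thymus and parathyroid, was the strongest HoxA gene in mean level. In Control, Control + CsA, Restored and Restored + CsA it stood at 26.0, 23.8, 17.9 and 18.2 TPM in 4711-11. The same 4 libraries gave 24.5, 21.4, 15.3 and 12.2 TPM in 4716-10 and 7.55, 6.43, 10.4 and 8.06 TPM in 4716-14. In Type D it was listed at 0 in 11 of 12 libraries and at 0.174 TPM in Restored + CsA cells of 4711-18. The Type V values thus all lay above those of Type D, and 4716-14 lay below the other Type V lines in every treatment. The annotated Hoxa3 gene reaches past Hoxa4, Hoxa5 and Hoxa6, and 25.4% of its exon bases lie opposite antisense genes. Other members have such bases too, among them Hoxb3 (52.9%), Hoxb2 (27.3%), Hoxa7 (20.4%) and Hoxa4 (16.0%). The libraries were stranded, but the strand setting of the counting is not given in the sources used here.

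Hoxa5, the member best known from the lung, showed the same division. It stood at 4.83, 4.88, 5.40 and 6.70 TPM in 4711-11, in the order of treatments above. In 4716-10 it stood at 7.19, 8.90, 12.6 and 12.1 TPM and in 4716-14 at 3.44, 3.03, 2.71 and 2.98 TPM. Type D libraries held 0 except for 0.119 TPM in both Restored libraries of 4716-11.

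Hoxa4 broke this pattern, since it was off in 1 Type V line while its neighbors on either side were on. In 4711-11 it stood at 0.832, 0.222, 0.363 and 0.539 TPM. In 4716-10 it reached 24.3, 23.7, 12 and 12.8 TPM and in 4716-14 9.95, 8.69, 6.44 and 6.48 TPM. Every Type D library was listed at 0, so even the low values of 4711-11 lay above Type D, and the 3 Type V lines did not overlap.

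The middle of HoxA differed between lines in another way. Hoxa6 was on in 4711-11 (2.89 to 4.56 TPM) and 4716-10 (5.60 to 6.89 TPM) but not in 4716-14 (0.0728 to 0.440 TPM). Hoxa7 followed, with 1.21 to 3.47 TPM, 1.83 to 3.95 TPM and at most 0.0848 TPM in the same lines. Active HoxA genes in 4716-14 thus stopped at Hoxa5, apart from Hoxa10.

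Toward the 5′ end activity was not continuous. Hoxa9, known for its role in leukemia, stayed under 1 TPM in all 24 libraries, with a highest value of 0.715, although Hoxa7 and Hoxa10 on either side of it were on in 2 lines. Hoxa10, a gene of the posterior trunk and reproductive tract, stood at 2.49 to 3.65 TPM in 4711-11, 2.96 to 5.72 TPM in 4716-10 and 0.607 to 1.26 TPM in 4716-14. Hoxa11, the next gene, was at most 0.0935 TPM. Hoxa13, at the 5′ end, passed 1 TPM in 1 library, Restored cells of 4711-11, at 1.27.

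**Figure D2:**
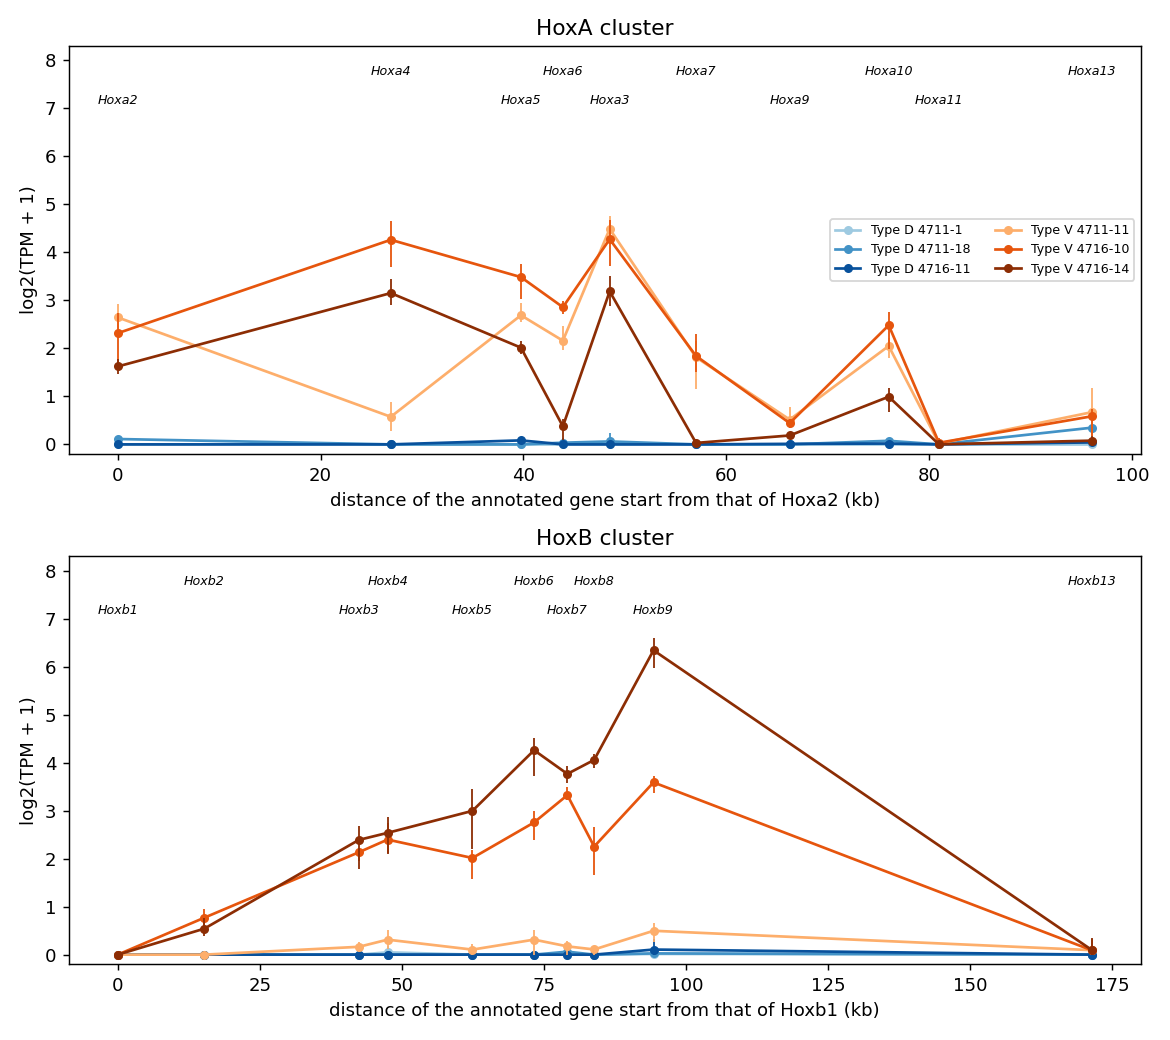
Level along HoxA (upper panel) and HoxB (lower panel): the horizontal axis gives the distance of each annotated gene start from that of the first gene shown in kb, the vertical axis log2(TPM + 1). Points are the log2 of the mean TPM plus 1 over the 4 libraries of a line and vertical bars run from the lowest to the highest library; the annotated start of Hoxa3 lies beyond that of Hoxa6. 4711-11 and 4716-10 show a dip at Hoxa9, Type V lines show one at Hoxa11, and Hoxa4 is low in 4711-11. HoxB levels in 4716-10 and 4716-14 are highest at Hoxb9 and near 0 at Hoxb1 and Hoxb13.

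HoxB was active in 2 of the 3 Type V lines and there as one run from Hoxb3 to Hoxb9. Hoxb9, at the 5′ side of the run and involved in rib and mammary development, carried the most. In 4716-14 it stood at 70.7, 61.4, 95.2 and 92.6 TPM in Control, Control + CsA, Restored and Restored + CsA. In 4716-10 it stood at 11.4, 12.1, 9.26 and 11.3 TPM, and in 4711-11 at 0.589, 0.544, 0.206 and 0.306 TPM. No library of 1 of these lines overlapped a library of another. The highest Type D value, 0.249 TPM in Restored + CsA cells of 4716-11, lay within the range of 4711-11.

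The other HoxB genes of the run had the same order of lines. Hoxb6 stood at 12.2 to 21.9 TPM in 4716-14, 4.26 to 7.01 in 4716-10 and at most 0.436 in 4711-11. Hoxb7 stood at 10.9 to 14.3, 8.27 to 10.2 and at most 0.219 TPM, and Hoxb8 at 13.7 to 17.0, 2.16 to 5.30 and at most 0.120 TPM. Hoxb3, Hoxb4 and Hoxb5 were weaker, with means of 4.24, 4.80 and 6.97 TPM in 4716-14 and 3.38, 4.27 and 3.04 TPM in 4716-10. Hoxb3 and Hoxb4 overlapped between these lines, while Hoxb6, Hoxb8 and Hoxb9 differed most in TPM. Hoxb2 stayed below 1 TPM, at most 0.920, Hoxb1 was listed at 0, and Hoxb13, set apart from the rest of the cluster, reached 0.277 TPM.

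HoxC was active in 4716-10 alone and at low levels. Hoxc10, a gene of the posterior trunk and hindlimb, stood at 2.97, 2.69, 2.12 and 2.82 TPM there, in the order of treatments above. Hoxc9 stood at 2.28, 2.62, 2.08 and 1.52 TPM and Hoxc6 at 1.23, 1.21, 1.95 and 1.85 TPM. Hoxc8 ranged from 1.35 to 1.90 TPM and Hoxc4 from 0.896 to 1.65 TPM, the latter on in 3 of the 4 libraries. The same genes did not exceed 0.140 TPM in the other Type V lines, and in Type D the highest was the 0.984 TPM of Hoxc6, which in 4716-11 stood at 0.112, 0.0950, 0.420 and 0.984 TPM. Hoxc13 was below 1 TPM throughout, with 0.881 TPM as its highest in 4716-10 and 0.831 TPM in Restored + CsA cells of 4711-1. Of HoxD, Hoxd4, which shares 52.3% of its exon bases with other annotated genes on its strand, reached 0.150 TPM in Control cells of 4711-18, Hoxd8 0.0594 TPM and Hoxd13 0.127 TPM, each without a neighbor that was on.

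Among Type D lines, 4711-1 was listed at 0 for all 11 HoxA genes in all 4 libraries. Hotairm1, a noncoding gene of HoxA, was also listed at 0 there and stood at 1.53, 14.8, 6.35 and 7.92 TPM in 4711-18, in the order of treatments above.

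The types were compared on log2(TPM + 1) with limma across the 14104 genes that reached 1 TPM in 3 or more libraries, and a gene was called at an adjusted p (Benjamini-Hochberg, two-sided) under 0.05 and a difference of at least 1. This scale understates differences of genes with low values. Of the 39 Hox genes 20 passed the filter: 8 HoxA, 7 HoxB, 5 HoxC and 0 HoxD. Since no Hox gene was on in Type D, those that passed did so through their Type V values alone, which sets the direction of the difference for all 20 and raises the share called above that of genes admitted through either type. Of the 20, 5 were called lower in Type D, where 4.41% of all genes tested were, among them Hoxa2, Hoxa3, Hoxa5 and Hoxa10.

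Hoxa3 had the largest difference, -4.18 (SE 0.42, adjusted p = 2.28e-06). Those of Hoxa5 and Hoxa2 were -2.58 (SE 0.43, adjusted p = 4.31e-04) and -2.27 (SE 0.33, adjusted p = 1.29e-04). Hoxa10 differed by -2.05 (SE 0.43, adjusted p = 0.00360). The 5 genes called are those that were on in all 3 Type V lines in Control. Hoxb9 differed by -3.44 with an SE of 1.57 (adjusted p = 0.163) and Hoxa4 by -3.00 with an SE of 1.02 (adjusted p = 0.0580), so for genes off in 1 Type V line the spread between lines was too wide for a call. Without 4711-11, the line that used HoxA alone, 13 of the 20 were called lower in Type D in Control cells and 12 in Restored cells. These were the highest counts with 1 line left out. HoxB was off in that line, so leaving it out favored calls of HoxB genes in advance. The range over the other lines left out is given below and reached lower counts in Restored cells. The 5 HoxC genes had differences from -0.66 to -0.28 and no call.

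In Restored cells 6 of the 20 were called lower in Type D, where 4.99% of all genes tested were: the same 5 and Hoxb4. The difference of Hoxa3 was -3.92 (SE 0.42, adjusted p = 4.47e-06). Hoxb4 differed by -2.04 (SE 0.68, adjusted p = 0.0493), just inside the threshold, and was not called in 10 of 12 other settings. The 2 comparisons of types draw on the same lines and are not independent of each other.

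Over all treatments together, 7 of the 20 Hox genes tested had every one of the 12 Type V libraries above every one of the 12 Type D libraries, which held for 4.33% of all genes tested, among them Hoxa2, Hoxa3, Hoxa4, Hoxa5, Hoxa10 and Hoxb3. Since the 20 were admitted through Type V, this share is a description of the members and not a comparison with other genes. The 12 libraries of a type are 4 treatments of 3 lines and are not 12 independent samples.

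**Figure D3:**
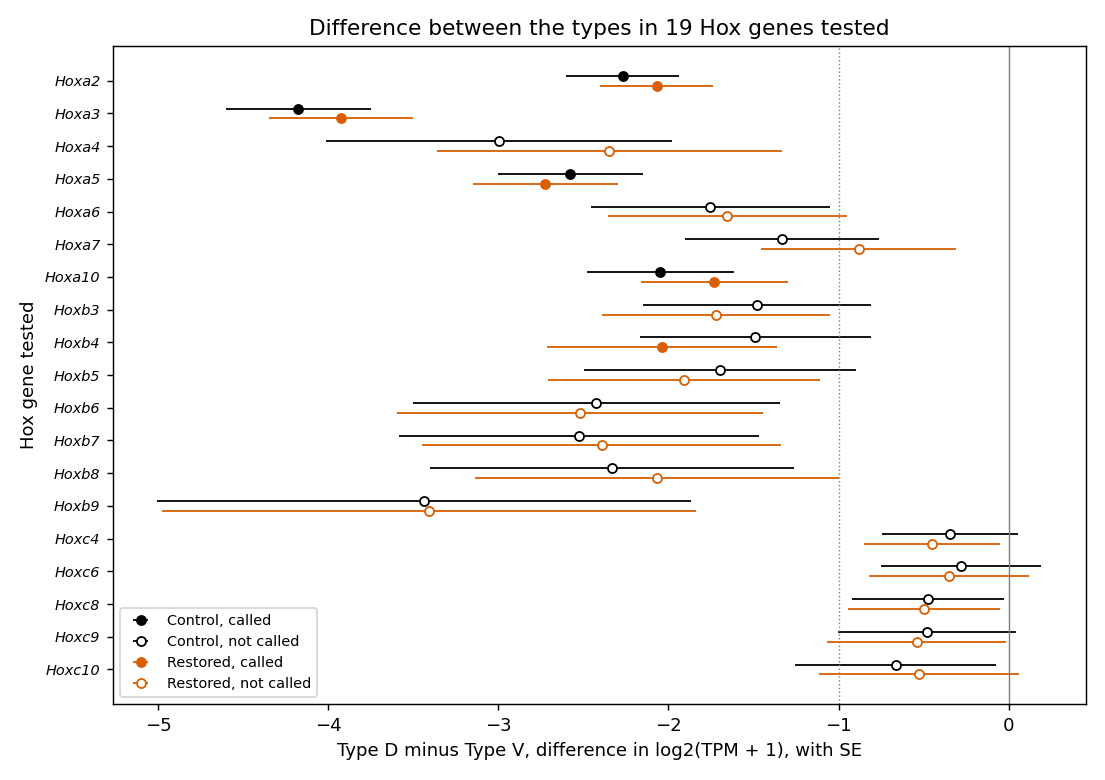
Difference between Type D and Type V in log2(TPM + 1) for 19 of the 20 Hox genes tested (rows), in Control (black) and Restored cells (orange), with the SE as bars and n = 3 lines per type. Filled points are called (adjusted p under 0.05 and a difference of at least 1, dotted line at -1); all points lie below 0 and the filled ones are Hoxa2, Hoxa3, Hoxa5 and Hoxa10 in both states and Hoxb4 in Restored cells.

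How much of the variation followed type, line and treatment was read from the squares of log2(TPM + 1). For the 20 Hox genes the median shares were 52.5% for type, 46.3% for line within type and 0.305% for treatment (17.5%, 33.7% and 14.1% over all genes tested). The 20 lie at or near 0 in the 12 Type D libraries and were admitted through Type V, which by itself gives large shares to type and line, so these shares describe the members only. In HoxA the type took the largest share (median 82.1%, up to 95% for Hoxa3). In HoxB type and line were close to even (52.2% and 46.9%), and in HoxC the line took 78.7%, since 1 line expressed it. The treatment took at most 2.04% in any of the 20, in Hoxc6.

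Restoration of p53 itself was clear in every line. Trp53 stood at 10.5 to 15.3 TPM in the 12 libraries without restoration and at 181 to 253 TPM in the 12 with it. No Hox gene was called after restoration. In Type D 0 of 20 were called (6.93% of all genes tested were, in either direction), with differences from -0.09 to 0.06. Since these genes lie under 1 TPM in every Type D library and most of their values there are listed at 0, a call there was hardly possible, and the counts of 0 in Type D, here and below, say nothing about the treatments. In Type V 0 of 20 were called (5.29% of all genes), with differences from -0.65 for Hoxa4 to 0.55 for Hoxb4. Under CsA the counts were 0 of 20 in Type D (5.41% of all genes) and 0 of 20 in Type V (4.61% of all genes). The difference of the response between the types gave 0 of 20 (0.0284% of all genes).

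CsA gave no call either. CsA alone gave 0 of 20 in Type D (0% of all genes) and 0 of 20 in Type V (0% of all genes). CsA added to Restored cells gave 0 of 20 in Type D (0.0142% of all genes) and 0 of 20 in Type V (0% of all genes). The mean effect of CsA over both types and both p53 states gave 0 of 20 (0% of all genes), with differences from -0.13 to 0.15. In these comparisons of CsA the adjusted p of every Hox gene in limma was 1.00 and 0 of 20 had an unadjusted p under 0.05. In these fits the spread includes that between lines, with an SE of 0.33 (Hoxa2) to 1.57 (Hoxb9) for restoration in Type V, so small changes carried wide errors.

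Since the 4 libraries of a line are the same cells, the treatments were also fitted with the cell line as a replicate block, which lowered the SE of Hoxb9 to 0.17. Again 0 of 20 Hox genes were called in each of the 10 comparisons of treatments. The shares of all genes called in this fit were 11.2% for restoration in Type D, 8.66% in Type V, 9.69% under CsA in Type D, 7.97% under CsA in Type V and 2.44% for the difference of the response. They were 0.0142% for CsA alone in Type D, 0% in Type V, 0.128% and 0% for CsA added to Restored cells of Type D and Type V, and 0.0213% for the mean effect of CsA.

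With the block, 3 of 20 Hox genes had an adjusted p under 0.05 for restoration in Type V at a difference below 1, where 40.6% of all genes tested had one at any size. They were Hoxa4 at -0.65 (SE 0.17, adjusted p = 0.00637 in limma with the block), Hoxa7 at -0.45 (SE 0.17, adjusted p = 0.0409) and Hoxb4 at 0.55 (SE 0.13, adjusted p = 0.00273). Under CsA 3 of 20 had one, where 37.1% of all genes had: Hoxa2 at -0.59 (SE 0.16, adjusted p = 0.00946), Hoxa10 at -0.51 (SE 0.11, adjusted p = 0.00272) and Hoxb4 at 0.40 (SE 0.13, adjusted p = 0.0225). The shares of Hox genes lay below those of all genes. Type D libraries near 0 enter the spread that these p-values use, which makes it smaller than that among Type V lines.

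Within lines the changes of active genes were small and often opposed. In 4711-11 the 7 genes on had 2 up and 5 down on restoration, with the lowest change in Hoxa7 (-0.95). In 4716-10 the 19 genes on changed by -0.96 (Hoxa4) to 0.73 (Hoxa5), with 9 up and 10 down. In 4716-14 the 12 genes on changed by -0.56 (Hoxa4) to 0.72 (Hoxb5), with 7 up and 5 down. None of these changes reached 1 in either direction.

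Under CsA 1 gene in 4716-10 and 2 in 4716-14 passed 1, among them Hoxa2 in 4716-10 at -1.14 and Hoxb5 in 4716-14 at 1.07. These are differences between single libraries and have no test. On restoration under CsA all 7 active HoxB genes were higher in 4716-14 (median 0.68) and 5 of 7 were lower in 4716-10 (median -0.28). Without CsA most of them moved alike: Hoxb3, Hoxb4 and Hoxb5 were higher and Hoxb7 and Hoxb8 lower in both lines. Hoxb4 was higher in both lines with and without CsA, from 3.32 to 5.66 TPM in 4716-10 and from 3.54 to 6.27 TPM in 4716-14 without CsA. Hoxa4 was lower in both, from 24.3 to 12 TPM and from 9.95 to 6.44 TPM.

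With CsA alone, the active genes changed by -0.15 to 0.46 in 4711-11, by -0.28 to 0.52 in 4716-10 and by -0.55 to -0.03 in 4716-14. All 12 active genes of 4716-14 were lower, whereas 11 of 19 were higher in 4716-10 and 4 of 7 in 4711-11. After median-ratio scaling of the libraries (factors 0.887 to 1.12) the summed HoxB level of 4716-14 was 132 TPM in Control and 112 TPM in Control + CsA, against 133 and 109 TPM as deposited. There is 1 library of each kind, so this difference has no replicate check within the line.

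**Figure D4:**
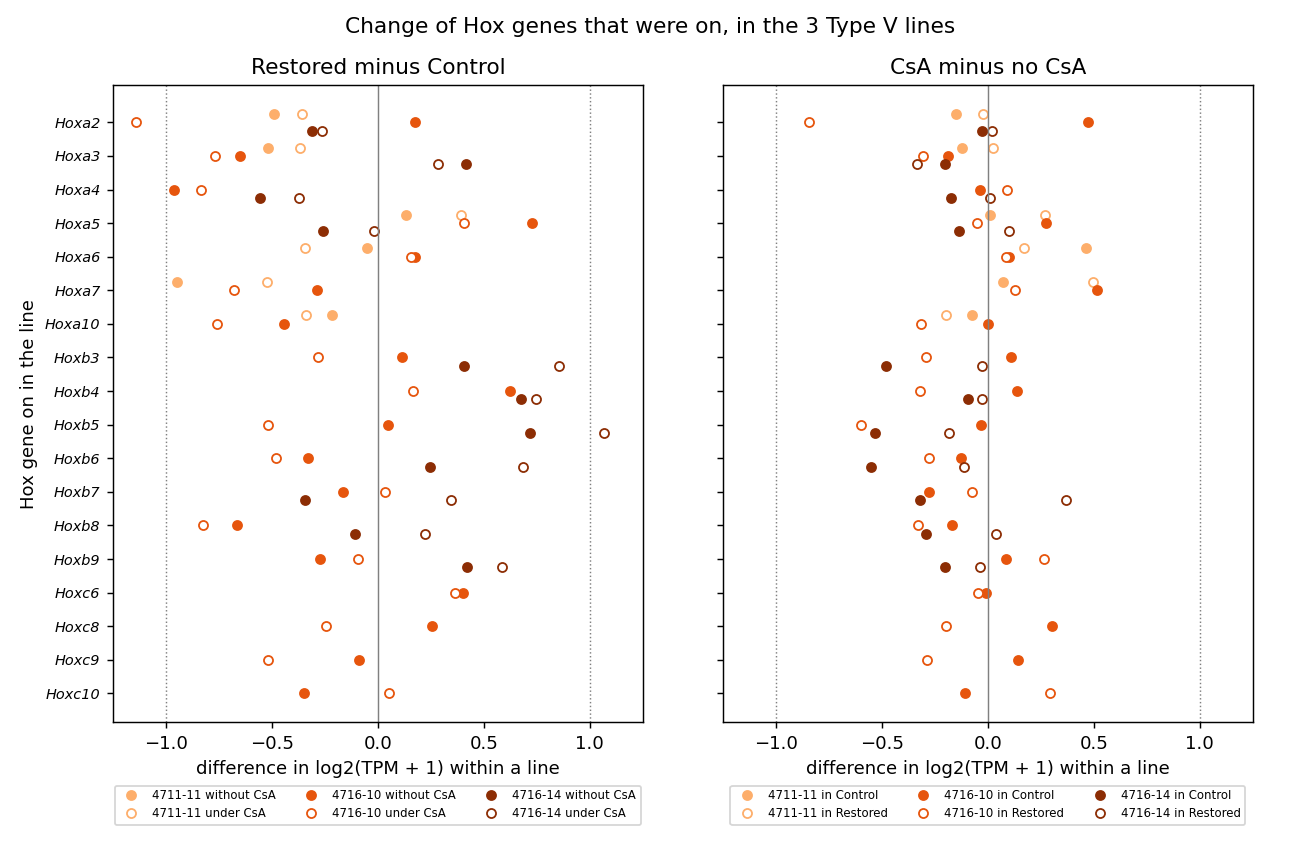
Change of 18 Hox genes that were on in all 4 libraries of a Type V line (rows), in log2(TPM + 1), 1 point per line and pair of libraries; colors mark the lines and there is no replicate within a line. Left, restoration without CsA (filled) and under CsA (open); right, CsA in Control (filled) and in Restored cells (open). Points lie on both sides of 0 and 2 of 140 pass 1 in size (dotted lines), both for restoration under CsA.

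Neither treatment changed which clusters were on, but summed levels differed. In the order Control, Control + CsA, Restored and Restored + CsA, HoxA summed to 53.1, 53.2, 42.8 and 47.0 TPM in 4711-11. It summed to 79.9, 83.0, 62.6 and 57.2 TPM in 4716-10 and to 27.4, 23.6, 25.2 and 24.8 TPM in 4716-14. HoxB summed to 45.0, 43.0, 40.2 and 35.8 TPM in 4716-10 and to 133, 109, 166 and 164 TPM in 4716-14. These sums come from single libraries and have no test. Of the 39 genes, 39 were off in all 4 libraries of each Type D line. In each Type V line all genes but 1 were either on in all 4 libraries or off in all 4. The exceptions lay near the threshold: Hoxa13 in 4711-11 (0.121 to 1.27 TPM), Hoxc4 in 4716-10 (0.896 to 1.65 TPM) and Hoxa10 in 4716-14 (0.607 to 1.26 TPM).

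Some noncoding genes within the clusters were also lower in Type D. Of 15 listed, 5 passed the filter and 2 were called lower in Type D in Control cells (4.41% of all genes tested), Hotairm1 and Hoxaas2. Of the 5, all but Hotairm1 were listed at 0 in every Type D library. Those passed through Type V alone, which set their direction in advance. Unlike the Hox genes, Hotairm1 was above 1 TPM in Type D, in all 4 libraries of 4711-18 and in Control cells of 4716-11. Hotairm1 stood at 31.4 to 96.9 TPM in Type V and at 0 to 14.8 TPM in Type D, with a difference of -4.97 in Control (SE 0.93, adjusted p = 0.00135 in limma). Hoxaas2, antisense to Hoxa3, was listed at 0 in all Type D libraries and stood at 0.650 to 2.34 TPM in Type V (difference -1.31, SE 0.26, adjusted p = 0.00176). Halr1, which lies before the 3′ end of HoxA, stood at 8.66, 8.92, 1.48 and 0.919 TPM in 4716-14, at most 2.01 TPM in 4711-11 and at 0 in Type D. The posterior noncoding genes Hottip and Hotair reached 0.0645 and 0.0735 TPM.

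Gm53, a noncoding gene between Hoxb9 and Hoxb13 that was picked out after its values were seen, was on in the same lines as HoxB. It stood at 28.8, 18.2, 68.9 and 56.7 TPM in 4716-14 and at 4.05, 2.79, 9.30 and 12 TPM in 4716-10. It was at most 0.226 TPM in 4711-11 and listed at 0 in Type D. Restored libraries were above Control libraries in both active lines. The difference on restoration in Type V was 0.85, with an adjusted p of 0.828 in limma and of 0.0139 with the cell line as replicate block, and it was not called in either fit. Under CsA it was 1.12, with an adjusted p of 0.781 in limma and of 0.00277 with the cell line as replicate block, where it was called. Since Gm53 was picked by these same values, the call does not test it. Its values of 0 in Type D lower the spread in this fit, so the p may be too small.

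Of 10 genes that flank the clusters 1 was called lower in Type D in Control cells (4.41% of all genes tested), Skap2 beside HoxA, and 0 in Restored cells (4.99%). Skap2, a signaling adaptor, was on everywhere, at 40.1 to 88.8 TPM in Type D and 86.8 to 136 TPM in Type V (difference -1.11, SE 0.22, adjusted p = 0.00198 in limma). Mtx2 and Lnpk beside HoxD stood at 97.8 to 127 and 13.6 to 19.1 TPM in Type V, next to a cluster that was off.

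Hox proteins bind DNA together with TALE cofactors, and some of those were also lower in Type D. Of 11 tested, 4 were called lower (4.41% of all genes tested) and 0 higher (4.42%) in Control cells, among them Meis1, Meis2 and Pknox2. Meis1 ranged from 5.10 to 12.9 TPM in the Type V libraries and reached 1.16 TPM in those of Type D (difference -3.07, SE 0.36, adjusted p = 1.07e-05 in limma). Meis2 ranged from 12.9 to 46.4 TPM and reached 3.89 TPM (difference -4.05, SE 0.65, adjusted p = 3.04e-04). Its highest Type D values were in 4711-18. Meis1 and Pknox2 met the filter only through Type V, so their direction was set in advance. In Restored cells 3 were called lower (4.99% of all genes), among them Meis1 and Meis2, Pknox2 was not (-1.34, adjusted p = 0.160 in limma), and Tgif1 was called higher by 1.15 (4.45% of all genes). Pbx4 was called higher on restoration as 1 of 11 cofactors in each type, by 1.33 in Type D (6.93% of all genes called in either direction) and by 1.82 in Type V (5.29%).

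Among ParaHox genes, relatives of Hox outside the clusters, Cdx2 ran the opposite way. Cdx2, an intestinal factor that can activate Hox genes in the embryo, stood at 39.8 to 126 TPM in Type D. In Type V it stood at 21.8 to 39.4 TPM in 4716-10, 2.48 to 7.0 TPM in 4716-14 and at most 0.385 TPM in 4711-11. It was called higher in Type D in Control cells, where 4.42% of all genes tested were (difference 4.01, SE 1.27, adjusted p = 0.0436 in limma) and not in Restored cells (3.25, adjusted p = 0.0941). Of 8 ParaHox and Evx genes, Cdx2 and Pdx1 passed the filter and the flanking Evx1 and Evx2 were listed at 0 in all libraries.

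**Figure D5:**
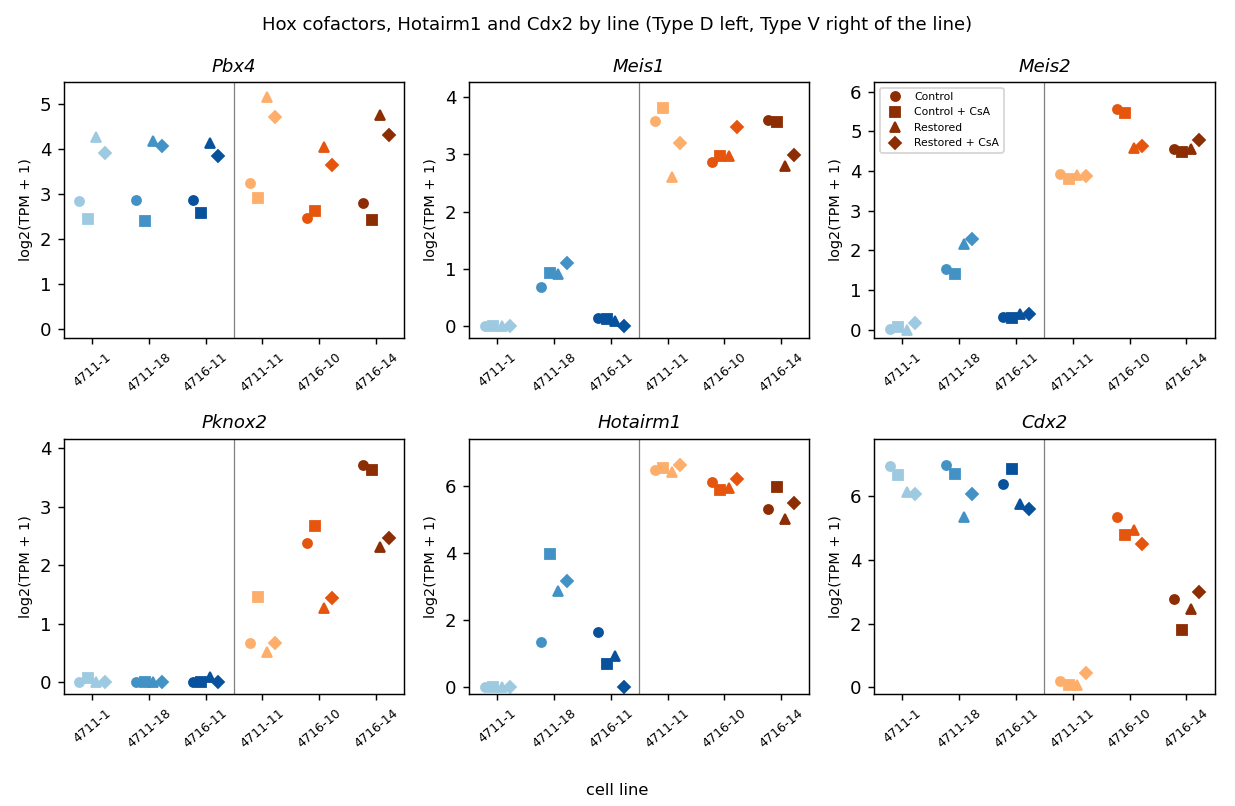
Level, as log2(TPM + 1), of the cofactors Pbx4, Meis1, Meis2 and Pknox2, the noncoding gene Hotairm1 and the ParaHox gene Cdx2 in the 4 libraries of each line, with Type D lines left and Type V lines right of the vertical line and a marker shape per treatment. Meis1, Meis2, Pknox2 and Hotairm1 are lower in every Type D than in every Type V library, Cdx2 is highest in the Type D lines, and Pbx4 is higher in Restored than in Control libraries of every line.

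Regulators of the clusters were present in both types. Of 22 Polycomb genes tested, 1 was called lower in Type D in Control cells, Phf19 (-1.30, SE 0.33, adjusted p = 0.0132 in limma), and 0 higher, near the 4.41% and 4.42% of all genes tested. In Restored cells 1 Polycomb gene was called lower and 1 higher (4.99% and 4.45% of all genes tested). On restoration 1 was called higher and 1 lower in each type. Of all genes 6.93% were called in Type D and 5.29% in Type V, in either direction. Ezh2, the methyltransferase of the complex, stood at 78.0 to 159 TPM in Type D and 71.1 to 152 TPM in Type V. Of 13 Trithorax genes 0 were called in either comparison of the types. Kmt2a stood at 8.77 to 24.8 and 10.6 to 36.2 TPM. Of 12 retinoic acid genes tested 2 were called higher, Aldh1a1 and Aldh1a3, which make retinoic acid, and 1 lower, its receptor Rarb, in Control cells of Type D (4.42% and 4.41% of all genes tested). In Restored cells 1 retinoic acid gene was called higher and 1 lower. Aldh1a3 stood at 11.2 to 642 TPM in Type D and 0.0819 to 5.08 TPM in Type V.

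Other markers differed between the types as well. Of 13 mesenchymal markers 12 were tested and 9 were called lower in Type D in Control cells, where 4.41% of all genes tested were called lower and 4.42% higher, and their summed level was 3323 to 5898 TPM in Type D and 6164 to 7876 TPM in Type V. Col1a2, Col3a1 and Dcn were at or near 0 in Type D (at most 0.106 TPM). Those of them that were tested passed the filter through Type V alone, which set their direction in advance. In Restored cells 6 of the 12 mesenchymal markers were called lower (4.99% of all genes tested) and 0 higher (4.45%). Of 6 epithelial markers 5 were tested and 1, Krt18, was called higher in Type D, with summed levels of 4441 to 11817 and 491 to 1577 TPM. Of 12 neuroendocrine markers, which define small cell lung cancer, 4 passed the filter, 1 of them, Uchl1, was called lower in Type D in Control (-4.01) and Restored cells (-2.0), and Chga was listed at 0 in all libraries. Endothelial markers summed to at most 0.615 TPM and Cd3e, of T cells, was listed at 0. Of 6 lung and foregut markers 5 were tested and 1 was called higher and 1 lower in Type D in Control cells, and of 6 immune markers 2 were tested and 1 was called higher. In Restored cells 1 lung and foregut marker was called higher and 2 lower, and 0 immune markers were called. In bulk libraries, fewer cells of a type and less RNA per cell cannot be told apart. The part of these differences in the Hox values was not tested.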

How the data were processed

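RNA was measured by stranded mRNA sequencing in 24 libraries, 3 per group. The deposited values are TPM per gene symbol, made by the authors from the reads with Kallisto or HISAT2. The submitters' processing notes name HISAT2 and the genome builds mm10 and GRCm39. Whether HISAT2 made this table, and with which build, is not stated in the sources used here. TPM keep no depth, so no counting interval could be given, and changes are relative to the other genes of a library. Positions came from matching symbols to GENCODE M21 (GRCm38).

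Groups followed the labels. Values were tested as log2(TPM + 1) with limma 3.58.1 (R 4.3.3, trended empirical Bayes) over all 24 libraries and the 14104 genes that reached 1 TPM in 3 or more libraries. Calls needed an adjusted p (Benjamini-Hochberg, two-sided) under 0.05 and a log2 difference of at least 1. The residual spread is pooled over both types, so where Type D lies near 0 the p of a change in Type V may be too small. The fit was tested on simulated data. Line effects there were drawn smaller than the observed spread of line means, and there was no floor at 0. That test therefore does not cover genes near 0 in Type D or with a wide spread between lines.

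The 4 libraries of a line are the same cell line, which pairs them across treatments. Their deviations from group means correlated at 0.599 to 0.929 (36 pairs), against -0.727 to 0.0438 between lines of a type (96 pairs). Deviations of the 3 lines of a group cancel, which pulls the values between lines toward negative ones whatever the data. The fit with this block is given beside the main one. No columns were identical. Hox genes named in the text were the 3 highest of each cluster, those with a span of line means of at least 3 on the log2 scale and those called; the remaining members are given by ranges, and a few genes are not reported here by name. The members and gene lists were chosen with earlier results of these data known. Alternatives were another pseudocount, filter, scaling, set of samples and unit of replication.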

Additional observations from a re-analysis of the deposited data

How the results depend on the processing

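The count of Hox genes called lower in Type D was 5 in Control and 6 in Restored cells. With a pseudocount of 0.1 it was 8 and 10. Leaving out 1 line at a time gave 5 to 13 in Control and 4 to 12 in Restored cells, with 13 and 12 without 4711-11 and 4 in Restored cells without 4711-1 or without 4716-11. Hoxa2, Hoxa3 and Hoxa5 in both states and Hoxa10 in Control were called in every setting run. Hoxa10 in Restored cells was not called in 4 of 11 settings (adjusted p in limma 0.0569 to 0.0758) and Hoxb4 not in 10 of 12 (0.0542 to 0.181). With the cell line as replicate block, 0 Hox genes were called in each of the 10 comparisons of treatments, as without it, and comparisons of types cannot take this block. At a TPM of 0.5 the genes on in 4711-18 rose from 0 to 1, and at a TPM of 5 they fell to 1 in 4711-11, 7 in 4716-10 and 6 in 4716-14. No called difference between the types changed its sign in these settings, but admission through Type V had set that sign in advance. Signs of the restoration and CsA differences were not followed across settings. Without depth, TPM near the threshold of 1 cannot be given a counting error, and 3 lines per type limit the calls of genes that differ between lines of a type.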

Other observations

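Mir196a-1, a microRNA precursor next to Gm53 in HoxB, was picked out after its values were seen. It stood at 26.2, 16.9, 56.8 and 55.3 TPM in Control, Control + CsA, Restored and Restored + CsA cells of 4716-14. In 4716-10 it stood at 12.3, 2.12, 7.07 and 4.85 TPM, and it was listed at 0 in the other 4 lines. In 4716-14 both Restored libraries were above both Control libraries, as for Gm53, and in 4716-10 they were not. Reads from poly(A) libraries over a precursor do not measure the mature microRNA.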
